A study of Mus musculus with 22 samples.

Results

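The genes described here were selected on their level: 142 of the 15192 genes scored in mouse cortex at 12 months of age had a mean Sd score above 1 over the 10 libraries of that age. The Sd score is a ratio that the authors deposited for each gene and library, and Sd is read here as splicing deficiency, so that a higher score is taken to mean more unspliced RNA of a gene relative to spliced RNA. The sources used here do not give its formula, so a score above 1 cannot be equated with more intronic than spliced signal, and the group is called the high-score genes. Of 144 genes over the threshold, Kcnh6 and Rpl13a-ps1 were left out because their symbols belong to gene families set aside by name. The median of the mean scores was 1.65 in the high-score genes, against 0.0152 over all genes of the table, a gap that the selection itself made.

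The study, by its title, asks how a defect of the U1 small nuclear ribonucleoprotein (snRNP) linked to Alzheimer disease acts in the brain. At 6 months there were 3 libraries each of N40K, 5xFAD, dTg and WT mice, littermates from crosses of carriers of each transgene. The N40K transgene makes a truncated, N-terminal form of the U1 snRNP protein U1-70K, the 5xFAD transgenes cause amyloid plaques to form, and dTg mice have N40K and 5xFAD together. At 12 months there were 6 libraries of mice with the Tau P301S transgene, a mutant human tau, and 4 of WT mice, from crosses of Tau P301S carriers with WT. The labels name neither the promoters of the transgenes nor the mouse behind each 12-month library, so p-values there measure only the spread between libraries. Every library came from poly(A)-selected RNA of cortex treated with DNase.

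Most introns are removed while a gene is still being transcribed. The U1 snRNP starts this by base pairing of its RNA with the last bases of an exon and the first bases of the following intron. RNA that keeps an intron usually stays in the nucleus or is degraded, although some genes hold detained introns as a regulated store of unfinished transcripts. Where no spliced RNA of a gene is made, any signal over its introns weighs heavily in a ratio to spliced RNA.

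Named genes made up 88 of the 142 high-score genes. A further 37 rows (26.1%) carried the accession or clone name of a cDNA, against 6.67% of all 12-month rows, and 17 were predicted genes. The mean score exceeded 2 in 61 genes, 5 in 19, 10 in 10 and 100 in 1. All 10 libraries scored above 1 in 92 genes, and 50 had at least 1 library at or under 1. Just inside the threshold were Gm5124 (mean 1.01), the phosphatase-like endosomal sorting gene Ptpn23 (1.01), the renal phosphate transporter Slc34a1 (1.00) and Tmem20 (1.00). Just outside were Calml4 (0.993), Cilp2 (0.984), Cd33 (0.963) and the galanin receptor Galr2 (0.953).

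The highest score belonged to a clone name. The row mKIAA0077 had scores of 150 to 247 (median 170) in Tau P301S libraries, against 172, 248, 199 and 137 in WT libraries, so the groups overlapped. RefSeq lists this name as a synonym of Psme4, a proteasome activator, and Psme4 had a row of its own in the same table with a mean score of 0.0387, which is 4873-fold lower. Synonyms were looked up only for the 55 high-score rows without a row at 6 months, so second rows of the others were not searched for. RefSeq gave a current symbol for 9 of the 55 in this way. Of these symbols, 5 had a second row at 12 months, each with a mean at or under 1. The other 4 pairs were DIF-3 (1.17) with Ggnbp2 (0.0148), Cdh29 (1.22) with Cdhr4 (0.121), mKIAA0306 (1.06) with the transcriptional repressor Cic (0.151), and Ube1l (1.53) with Uba7 (0.402), the activating enzyme of the interferon-induced modifier ISG15. The same gene was thus scored above and below 1 under different names in these 5 cases.

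Among the next highest rows, AK013293 (mean 89.4), AK015404 (41.1), X02969 (10.1) and AK149278 (9.54) are cDNA accessions to which no function is given here. Myo3a, an unconventional myosin of sensory hair cells and photoreceptors, had scores of 23.9 to 89.0 (median 42.1) in Tau P301S libraries, against 52.3, 22.5, 61.4 and 63.7 in WT libraries. Pou3f1, a POU-domain transcription factor of Schwann cells and cortical projection neurons, scored 7.08 to 23.7 (median 21.3) in Tau P301S libraries, against 9.44, 15.9, 15.4 and 16.4 in WT libraries. In 5 Tau P301S libraries Pou3f1 lay above every WT library, and the remaining one, replicate 3, lay below them all. The mouse annotation GENCODE M21 gives Pou3f1 and the lens gene Lenep (mean 1.402) a single exon each, with no intron to score. Cdc23, a subunit of the anaphase-promoting complex, held to a narrow range of 14.7 to 16.8 (median 15.5) in Tau P301S libraries, against 14.5, 16.1, 14.5 and 14.7 in WT libraries. Gm628 (mean 15.2), FKBP12-T1 (10.1) and Pnma5 (9.29), of the paraneoplastic antigen family, completed the 12 highest rows. Of these 12 rows FKBP12-T1 and Cdc23 varied least between libraries, with coefficients of variation of 1.31% and 5.41%.

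**Figure D1:**
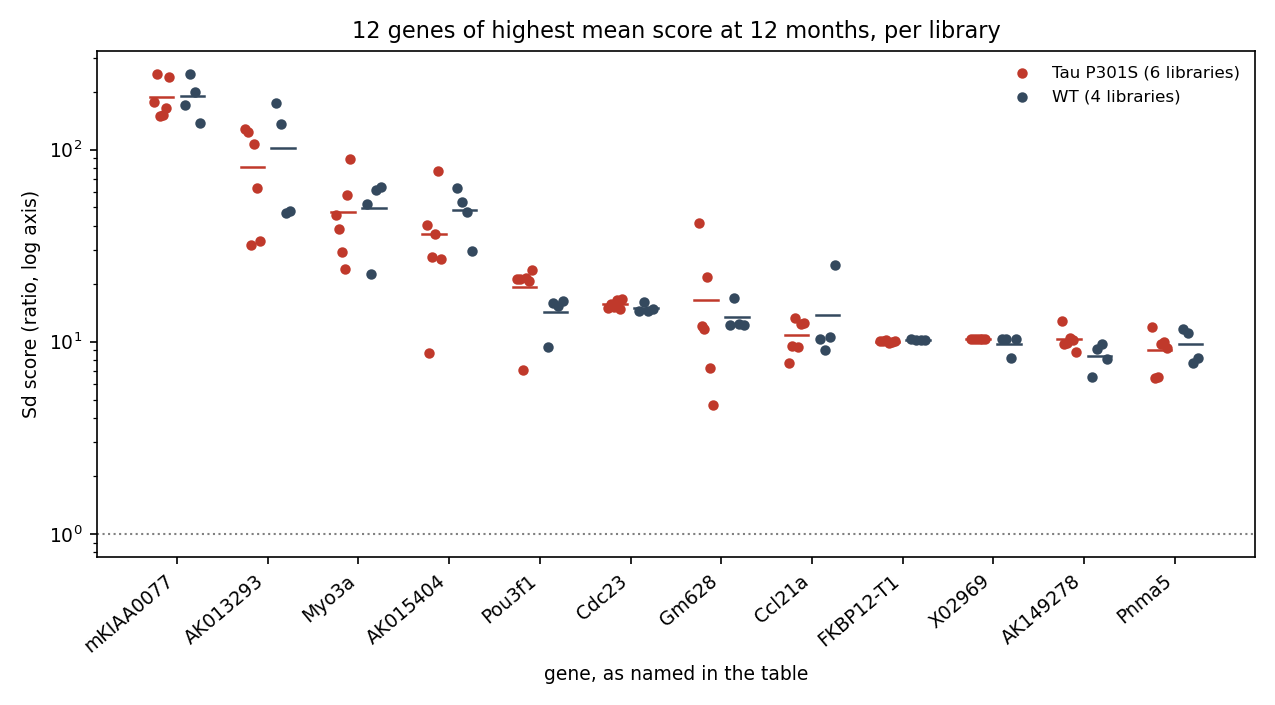
Sd scores of the 12 genes of highest mean at 12 months in each library, on a log axis, with Tau P301S libraries (n = 6) left and WT libraries (n = 4) right for each gene; short lines are group means and the dotted line marks a score of 1. The row mKIAA0077 stands highest, with a mean of 188.6, and FKBP12-T1 stays between 9.89 and 10.29 in both groups.

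The chemokine gene Ccl21a, whose product guides lymphocytes and dendritic cells to lymph nodes, scored 7.72 to 13.2 (median 11.0) in Tau P301S libraries, against 10.3, 9.09, 10.6 and 25.2 in WT libraries. Its copies Ccl21b (mean 4.14), Ccl21c (4.34) and Gm1987 (4.604) were high-score genes as well. How reads were assigned among the copies is not known, and whether their separate scores share reads was not tested. The coding sequences of Ccl21a and Ccl21b in GENCODE M21, both on chromosome 4 and 402 bases long, are 99.5% identical. Introns were not compared, nor were Ccl21c and Gm1987. The sequences are shown over coding bases 69 to 209, counted from the start codon. Capitals mark the differing bases, T84A and C194T from Ccl21a to Ccl21b.
Ccl21a: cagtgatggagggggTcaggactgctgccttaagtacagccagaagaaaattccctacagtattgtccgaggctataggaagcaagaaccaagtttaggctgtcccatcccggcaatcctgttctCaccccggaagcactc
Ccl21b: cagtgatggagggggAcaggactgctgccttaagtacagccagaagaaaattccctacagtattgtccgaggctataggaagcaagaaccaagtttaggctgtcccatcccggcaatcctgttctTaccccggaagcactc
In all 4 copies WT replicate 4 had the highest score (25.2, 6.35, 7.40 and 8.97 in Ccl21a, Ccl21b, Ccl21c and Gm1987) and Tau P301S replicate 1 the lowest (7.72, 3.17, 2.80 and 2.02). The copies thus ranked the same libraries at both ends.

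Spread between libraries differed widely among the high-score genes. The coefficient of variation over the 10 libraries ran from 0.201% in AK131819, with scores of 3.111 to 3.133, to 114% in Adam2, a sperm-surface gene. It was under 5% in 15 genes, 5 to 30% in 86 and over 30% in 41, with a median of 17.4%, against 21.4% over all genes. In X02969 the score was 10.28 in 9 libraries and 8.224 in WT replicate 3, a ratio of 0.8, and Tcra, the T-cell receptor alpha locus, stood at 1.721 in 8 of 10 libraries. The number of reads behind a score is unknown, so how far a tight or repeated score reflects depth was not tested.

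By symbol, 87 of the 142 high-score genes (61.3%) had a row in the 6-month table, against 85.3% of all 12-month symbols. The 55 without one were mostly clone names: 3 of 37 accession or clone names matched, against 71 of 88 named genes and 13 of 17 predicted genes. Of the 12 highest rows, 9 had no 6-month row. Current symbols did have one for 8 of the 9 synonyms above, with mean 6-month scores of 0.0147 for Psme4 and 2.94 for Apobr, listed at 12 months as Apob48r. Both tables were made separately and may rest on different gene models, so scores are set side by side here with no test.

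Most high-score genes were not high at 6 months. Their mean 6-month score was above 1 in 24 of 87 (27.6%), against 412 of 15705 genes (2.62%) in the whole 6-month table, and under 0.1 in 25. The median of the 6-month means was 0.336, against 0.0315 over all genes. The score was higher at 12 months in 78 genes and lower in 9, a direction that choosing genes by a high 12-month score favours. In 33 genes (37.9%) it was over 10-fold higher at 12 months, against 1.05% of the 12874 genes shared by both tables, while 25 lay within 2-fold. The median ratio of 12-month to 6-month score over the 12874 shared genes was 0.586. Genes high at 6 months were also mostly not high at 12 months: of 81 with a 6-month mean above 1 and a 12-month row, 57 averaged at or under 1 at 12 months. Over the shared genes the mean scores of both ages followed each other (Spearman's rho = 0.81), whereas over the 87 high-score genes they did not (rho = -0.02); the selection, which cuts the range of 12-month scores, bears on the second value.

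The gap between the ages differed widely among genes. The claudin gene Cldn10 had the widest, 300-fold, followed by Cdc23 (198-fold), the kinase Araf (176-fold) and the ADP-ribosyltransferase Parp8 (137-fold). In Cdc23 all 12 libraries of 6 months lay between 0.070 and 0.093, against a mean of 15.4 at 12 months. Eif3i, a translation initiation factor subunit, averaged 6.01 at 12 months and 0.0688 at 6 months. Exosc1, of the RNA exosome, averaged 3.43 and 0.0458, the deacetylase Sirt7 4.24 and 0.167, and Araf 2.64 and 0.015 at these ages. Cldn10 held the lowest 6-month mean (0.00625; all 12 libraries at 0.006 or 0.007) and averaged 1.87 at 12 months, followed from below by Parp8 (0.00792 and 1.08). Mbd5, of the methyl-CpG-binding family (0.0176 and 1.49), Sh3tc2, a Schwann cell myelination gene (0.0236 and 2.01), and the receptor kinase Adrbk1 (0.0262 and 1.37) were also among the 6 lowest at 6 months. The spread within an age differed among them: the coefficient of variation was 5.41% at 12 months and 8.03% at 6 months in Cdc23, 18.9% and 9.43% in Araf, 39.9% and 17.4% in Parp8, and 50.7% and 26.2% in Sh3tc2.

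Among genes high at both ages, Myo3a was the highest at 6 months (mean 16.5), where dTg replicate 2 scored 74.0 and the other 11 libraries 9.93 to 13.3. Npb, the precursor of neuropeptide B, averaged 15.1 at 6 months and 1.91 at 12 months. Its 6-month scores were 4.50, 6.19 and 10.009 in N40K, 12.0, 9.68 and 15.1 in 5xFAD and 11.3, 4.99 and 10.001 in dTg libraries, against 8.23, 71.0 and 18.6 in WT libraries. WT replicate 2 raised the mean of Npb, while every other library scored between 4.50 and 18.6. Next came 1700020A23Rik (4.66 at 6 months and 6.14 at 12), Pspn, the neurotrophic factor persephin (3.97 and 2.55), Cd14, a lipopolysaccharide co-receptor of microglia and macrophages (3.17 and 1.38), and Il31ra, a cytokine receptor (2.52 and 7.10). Scores were nearly alike at both ages in the growth factor gene Mst1 (1.99 at 6 months and 2.02 at 12) and in Adam21, a testis metalloprotease gene (1.03 at each).

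**Figure D2:**
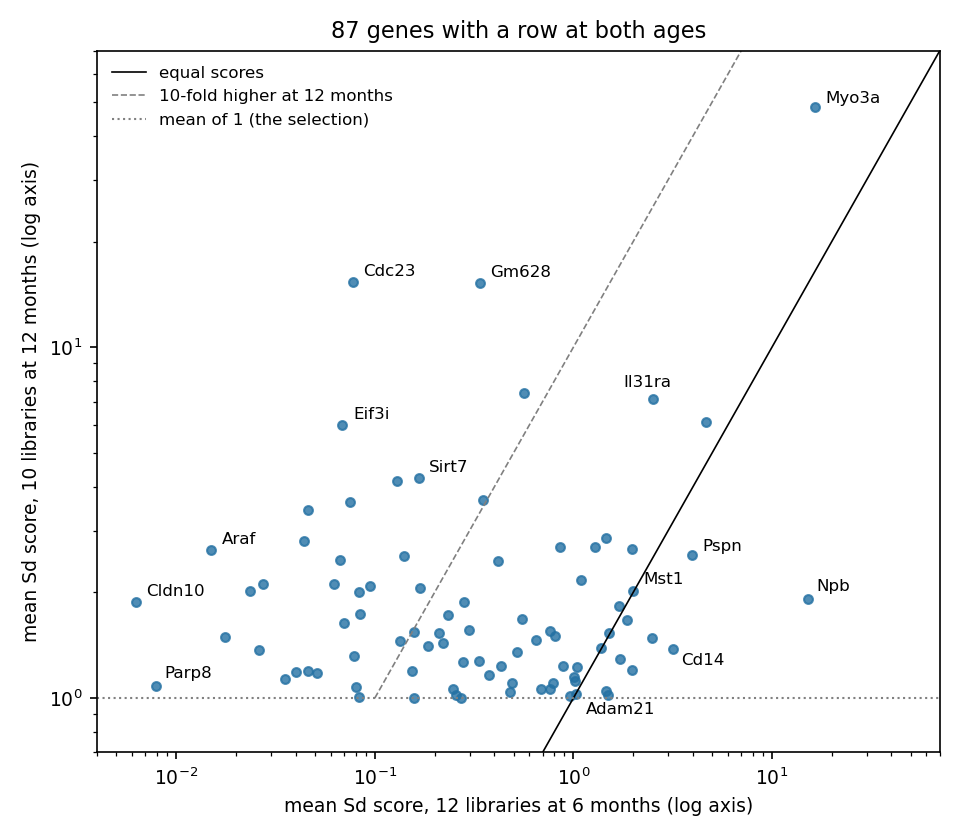
Mean Sd score at 6 months (12 libraries) and at 12 months (10 libraries) of the 87 high-score genes with a row at both ages, each point a gene, both axes logarithmic. All genes lie above a 12-month score of 1 by selection, 33 lie beyond the line of a 10-fold gap, and 24 lie right of a 6-month score of 1.

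Placed by textbook function after the values had been seen, 46 genes fell into 4 groups, and 96 were left unplaced. All 18 genes of broadly used cell machinery had a 6-month row, none with a mean above 1, and 13 were over 10-fold higher at 12 months; they include Ubb (ubiquitin), Oaz1 (polyamine control), Mrpl49 (mitochondrial ribosome) and Mus81 (a DNA repair nuclease). Of 9 neural signalling and development genes 8 had a 6-month row, and 5 of them scored above 1 there. These were Npb, Pspn, the Notch target Hes5 (1.73), the secreted ligand Wnt1 (1.09) and the NMDA receptor subunit Grin3b (1.02). Of 7 sensory and germ cell genes, 4 of the 6 with a 6-month row scored above 1 there (Myo3a, Ropn1l, Ggn and Adam21). Of 12 immune genes only 6 had a 6-month row, with Cd14 and Il31ra above 1. The median of the 12-month means differed little among the 4 groups (1.71, 1.91, 1.35 and 1.90 for machinery, neural, sensory and germ cell, and immune genes). These counts come from groups drawn up with the scores in view and carry no test. Rows left unplaced include AI462493 and Gm962, named Uqcc3 and Ap5b1 in GENCODE M21, with 6-month means of 1.51 and 2.50. That no machinery gene averaged above 1 at 6 months thus depends on which genes were placed.

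Lists of genes known for nuclear or intron-holding transcripts were set beside the high-score genes. With 0.935% of all 12-month genes chosen, lists of this size hold few or none by their size alone, so the counts of 0 are no result about the lists. None of 10 nuclear and imprinted long noncoding RNAs scored at 12 months passed a mean of 1, the highest being Mirg at 0.144. None of 7 host transcripts of small nucleolar RNAs and microRNAs did, with Snhg7 highest at 0.153. None of 36 genes known for detained or regulated introns did either, with a median of 0.0647 and the splicing factor gene Srsf6 highest at 0.290. No marker gene on short lists for microglia, astrocytes, oligodendrocytes, endothelium, choroid plexus, blood or neurons was a high-score gene, and no gene of these lists passed 1 at 6 months. The tables hold ratios and no expression, so the labelled tissue could not be checked against its markers.

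The 6-month table gives Ensembl identifiers, and 86 of the 87 high-score genes in it (98.9%) matched GENCODE M21. Of the 55 without a 6-month row 30.9% matched, so a check of gene structure is void for them. Constant intron bases are counted here as the bases of a gene that no annotated transcript holds in an exon. Their median was 4968 in the 86 high-score genes, against 23171 in the 12669 other matched genes. Fewer than 200 such bases were present in 14 high-score genes (16.3%), against 0.639% of other genes, and at most 2 exons in 14.0% against 2.00%. Overlap with another gene on the opposite strand was equally common (45.3% in each), as was overlap on the same strand (19.8% against 19.9%), and a small RNA gene lay in an intron of 10.5% against 12.3%. An exon of another gene lay in an intron of 25.6% of high-score genes, against 41.7% of the others, which also have more intron bases.

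Short introns went with high 6-month scores. Of the 14 high-score genes with under 200 constant intron bases, 11 averaged above 1 at 6 months. The count was 6 of 16 with 200 to under 2000 bases and 7 of 56 with 2000 or more. Over the 86 genes intron bases and 6-month scores were inversely related (Spearman's rho = -0.61), as they were over the other 12669 genes (rho = -0.62). With the 12-month scores rho was 0.06 in the high-score genes and -0.55 in the others. The score and the intron length may share the intron bases in their construction, genes are not independent replicates, and the 12-month scores are the ones selected on.

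**Figure D3:**
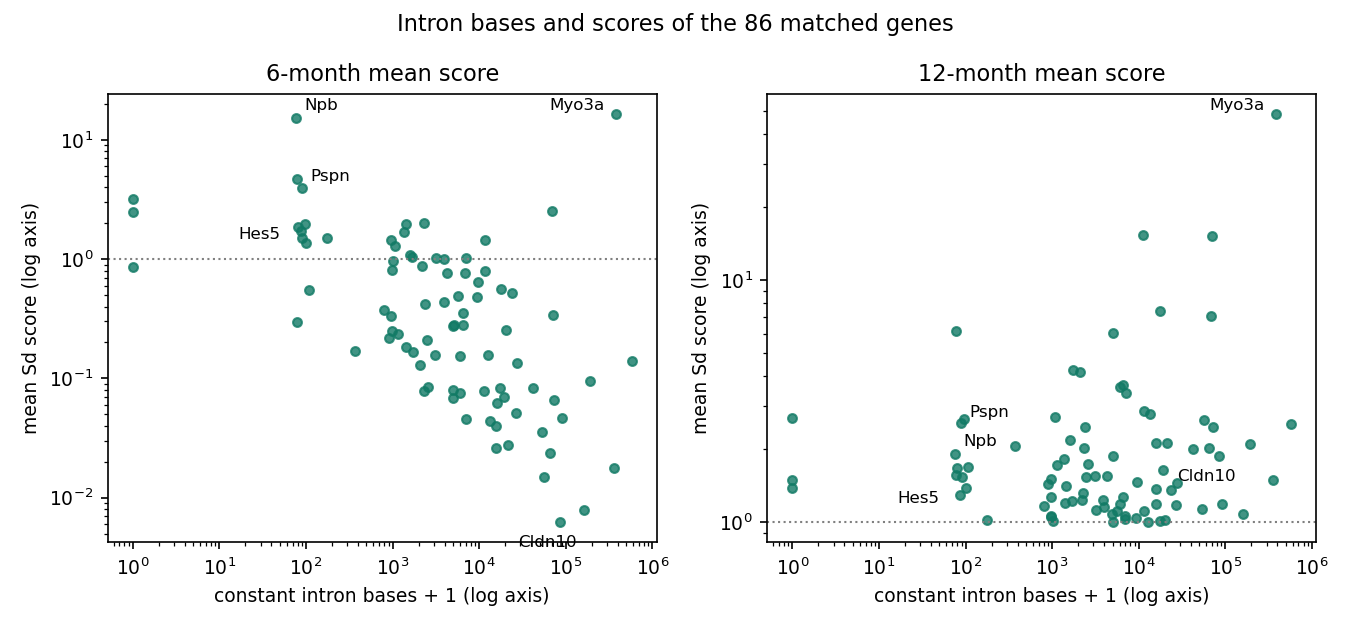
Constant intron bases (plus 1, log axis) against the mean Sd score (log axis) at 6 months, left, and at 12 months, right, for 86 high-score genes; the dotted line marks a score of 1. At 6 months scores fall with intron bases from Npb and Pspn down to Cldn10, with Myo3a apart, and at 12 months they show no such slope.

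The small introns are shown by the spliced sequence that removing them makes. Each line gives 30 bases around an exon junction of a GENCODE M21 transcript, 5′ to 3′, for 8 genes with scores above 1 at both ages, under 200 constant intron bases and a transcript of 1 intron (the first such transcript), and capitals mark the last 3 bases of the upstream exon, the exon part of the site that U1 RNA pairs with. The genes lie on chromosomes 17 (Pspn), 11 (6330403K07Rik, Npb and A030009H04Rik), 19 (Gm962 and AI462493) and 2 (Gm13199 and 1700020A23Rik), and were chosen after their scores were seen.
Pspn: ggacgccccatcAGGgtaacaaccatgtcc
6330403K07Rik: tggctgctggagGAGgttttgtggttacca
Npb: agcgtaaggagcCTTagctgccagcggcaa
Gm962: agcgagcagaccAAGgtttccttactgaca
Gm13199: ttgtctgccttcCAGctcattggacagatg
AI462493: cagtcgatgctgCAGgagatgccggaaagg
1700020A23Rik: tgacctgctctaTGGgcccacaggtgccaa
A030009H04Rik: cgttgcctagcaATGtgctctactgtccag
The introns removed at these junctions measure 88, 79, 111, 96, 96, 89, 77 and 100 bases in the order shown. Exon ends did not stand apart in sequence: 53.4% of 895 exon ends of the high-score genes closed with AG, against 55.3% of 172916 in other genes, and 23.9% against 23.3% closed with CAG.

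Changes between groups were tested with limma on log2(score + 0.002) over all genes of a table, with Benjamini-Hochberg adjustment and a threshold of adjusted p under 0.05. The first question was whether the N40K transgene changed these genes at 6 months. No high-score gene passed in N40K minus WT (0 of 87), where 0.178% of all genes passed. At an unadjusted p under 0.05 the count was 16 (18.4%), against 18.9% of all genes. The 3 named genes of smallest p were Irak1bp1 (log2 difference 0.52 ± 0.11 SE, adjusted p = 0.0778), Pdia2 (-0.88 ± 0.19, adjusted p = 0.0794) and Adam21 (-0.66 ± 0.14, adjusted p = 0.0794). The median log2 difference was -0.01 in the high-score genes and 0.10 over all genes. Without dTg replicate 2, which enters this comparison only through the shared error, 5 genes passed, Gm628 and Irak1bp1 higher and Adam21, Pdia2 and Pspn lower, while the calls over all genes went up to 524 (3.34%).

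Averaged over 5xFAD status, the comparison sets the 6 libraries with the N40K transgene (N40K and dTg) against the 6 without (5xFAD and WT). Of 87 high-score genes, 8 passed (9.20%), against 11.7% of all genes, so the share lay near the background. The difference was upward in 6 of them (10.8% of all genes passed upward) and downward in 2 (0.936% of all genes passed downward). After each library was centred on its median, 10 of 87 high-score genes passed, 2 higher and 8 lower. Over all 15705 genes 1241 passed after centring (7.90%), 713 higher and 528 lower. The upward share over all genes thus moved to 57.5% of calls, against 92.0% uncentred. Which genes passed thus depended on whether the general shift of carriers, 0.09 in the median log2 difference of all genes, was kept. The high-score genes had a median of 0.00 in this comparison, with 50.6% of them above 0, against 73.1% of all genes.

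Irak1bp1, a signalling gene that acts on NF-kappaB, gave the firmest rise. It scored 0.076, 0.070 and 0.070 in N40K and 0.068, 0.087 and 0.064 in dTg libraries, against 0.057, 0.054 and 0.053 in 5xFAD and 0.051, 0.044 and 0.054 in WT libraries. Every carrier library lay above every other library (1.37-fold, log2 difference 0.46 ± 0.08 SE, limma adjusted p = 0.0128). It passed with any 1 of the 12 libraries left out, after centring, and without both N40K replicate 1 and dTg replicate 2, the libraries with the highest median over all genes (adjusted p = 0.0179). At 12 months the same gene averaged 2.11.

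Ptpn23, which helps sort receptors at endosomes, was also separated, at 0.090, 0.082 and 0.086 in N40K and 0.085, 0.094 and 0.090 in dTg libraries, against 0.080, 0.077 and 0.078 in 5xFAD and 0.078, 0.076 and 0.079 in WT libraries. The rise was small (1.12-fold, limma adjusted p = 0.02002) and missed the threshold without 5xFAD replicate 3 or WT replicate 2 (adjusted p up to 0.0513). After centring on library medians its log2 difference was 0.03, against 0.17 uncentred, and no longer passed. Gm628 scored 0.511, 0.570 and 0.433 in N40K and 0.264, 0.521 and 0.294 in dTg libraries, against 0.256, 0.216 and 0.180 in 5xFAD and 0.280, 0.242 and 0.279 in WT libraries (1.73-fold, limma adjusted p = 0.0225). Its dTg replicate 1 overlapped with the non-carriers, and the call was lost without 5xFAD replicate 3, N40K replicate 1 or WT replicate 2 (adjusted p up to 0.0566).

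The other 3 rises were in Il31ra, Parp8 and Fam113a. Il31ra had 2.97, 2.90 and 2.59 in N40K and 2.92, 6.18 and 2.65 in dTg libraries, against 1.37, 1.77 and 1.74 in 5xFAD and 0.994, 2.71 and 1.402 in WT libraries. With a mean of 3.37 ± 1.39 in carriers and 1.66 ± 0.584 in non-carriers (SD, n = 6 each) the score rose 2.01-fold (limma adjusted p = 0.0455), but WT replicate 2 overlapped with the carriers. Parp8 moved by steps of the last decimal, with 0.008 to 0.010 in carriers, against 0.006 to 0.008 in non-carriers (1.25-fold on the scale with pseudocount, limma adjusted p = 0.0283). Fam113a had 0.549, 0.414 and 0.444 in N40K and 0.423, 0.477 and 0.472 in dTg libraries, against 0.367, 0.415 and 0.352 in 5xFAD and 0.382, 0.390 and 0.345 in WT libraries, with an overlap at 0.414 and 0.415. It averaged 0.463 ± 0.0491 in carriers and 0.375 ± 0.0259 in non-carriers (SD, n = 6 each, 1.23-fold, limma adjusted p = 0.0391). Il31ra passed when WT replicate 2, dTg replicate 1 or dTg replicate 3 was left out and with no other omission (adjusted p up to 0.0969), and Fam113a when 5xFAD replicate 2, N40K replicate 2 or dTg replicate 1 was (up to 0.0923). Parp8 missed the threshold in 7 of 12 omissions (5xFAD replicates 1 and 3, N40K replicates 1 and 3, WT replicates 1 and 2, and dTg replicate 2; adjusted p up to 0.0662). Centring left log2 differences of 0.18 in Parp8 (0.32 uncentred), 0.16 in Fam113a (0.30) and 0.87 in Il31ra (1.01), and none of these passed.

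Pdia2, a protein disulfide isomerase known from the pancreas, fell. It scored 1.104, 1.136 and 1.517 in N40K and 1.461, 1.046 and 1.675 in dTg libraries, against 1.665, 2.160 and 1.804 in 5xFAD and 2.39, 2.00 and 2.47 in WT libraries (0.632-fold, log2 difference -0.66 ± 0.14 SE, limma adjusted p = 0.0196). The carriers and non-carriers overlapped at 1.675 in dTg replicate 3 and 1.665 in 5xFAD replicate 1, and the call held with any 1 library left out but not without both libraries of highest median (adjusted p = 0.0589). Adam21 scored 0.651, 0.737 and 0.893 in N40K and 1.17, 0.821 and 1.08 in dTg libraries, against 1.104, 1.242 and 1.089 in 5xFAD and 1.23, 1.12 and 1.22 in WT libraries (0.748-fold, limma adjusted p = 0.0325). Among the dTg libraries of Adam21 only replicate 1 overlapped the non-carriers. The Adam21 call held only without N40K replicate 3, dTg replicate 1 or dTg replicate 3 among the 12 omissions (limma adjusted p up to 0.0708).

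**Figure D4:**
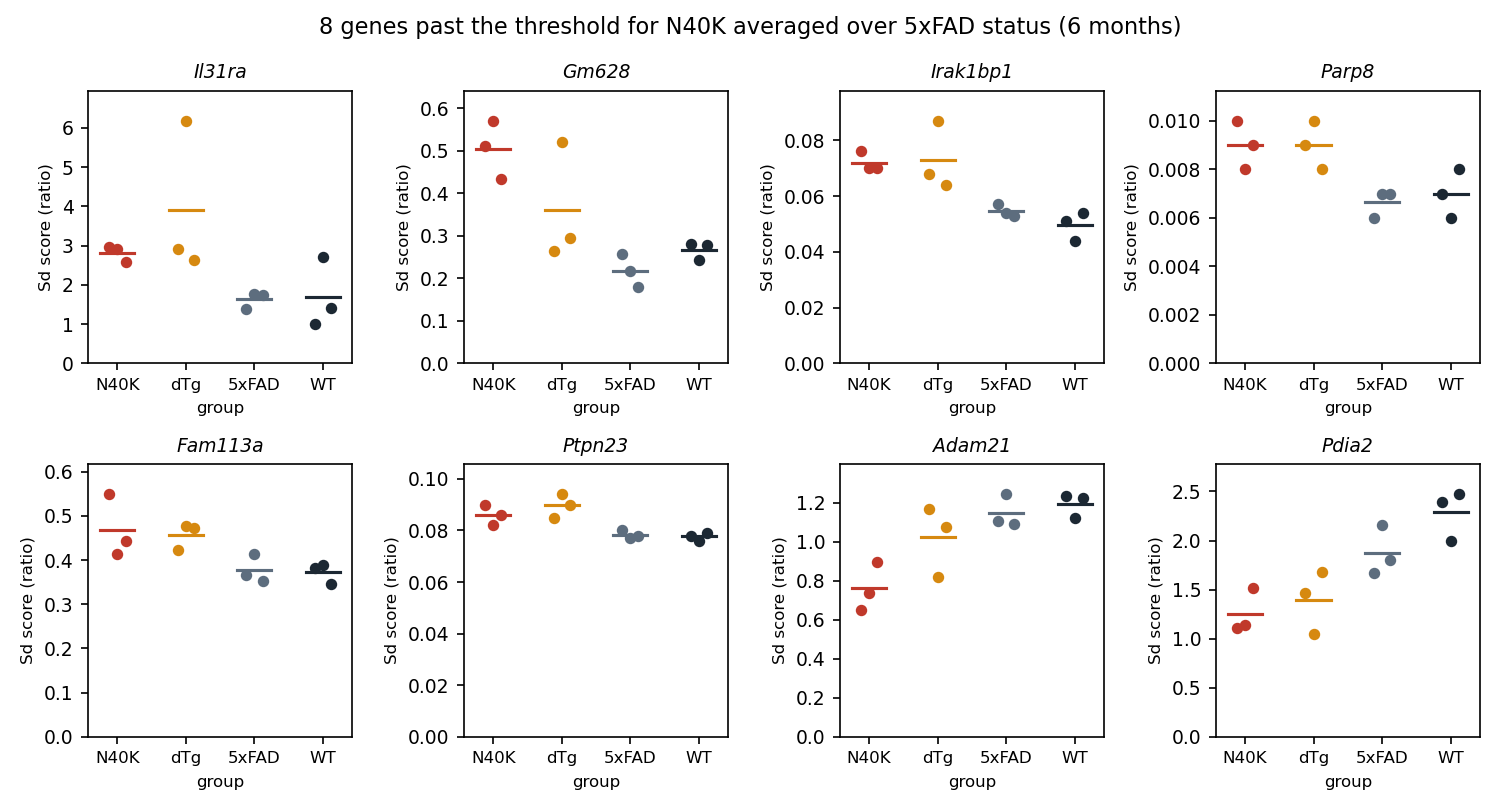
Sd scores at 6 months of the 8 high-score genes that passed for N40K averaged over 5xFAD status, by group (N40K, dTg, 5xFAD and WT; n = 3 each), with points for libraries, lines for group means and axes from 0. In Irak1bp1 and Ptpn23 all 6 carrier libraries lie above the other 6, and in Pdia2 and Adam21 the carrier groups average lower.

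The count of 8 changed with single libraries, as did the count of 1838 over all genes. It was 2 without 5xFAD replicate 3, 3 without N40K replicate 1 or WT replicate 2, 4 without 5xFAD replicate 1, WT replicate 1 or dTg replicate 2, and 5 without WT replicate 3. The count was 6 without N40K replicate 3, 7 without 5xFAD replicate 2 and 8 without N40K replicate 2 or dTg replicate 1. Without dTg replicate 3 it was 10, 5 higher and 5 lower. The count over all genes was 832 without 5xFAD replicate 3, 1058 without N40K replicate 1, 813 without WT replicate 2, 1173 without 5xFAD replicate 1, 965 without WT replicate 1, 947 without dTg replicate 2 and 1372 without WT replicate 3. Without both libraries of highest median 3 passed, Gm628, Irak1bp1 and Ptpn23, with 749 over all genes. Centring kept Adam21, Gm628, Irak1bp1 and Pdia2 and added 6 genes that were lower relative to the shift: Araf, Cdc23, Pspn, Sirt7, the endoplasmic reticulum gene Reep2 and 4930447C04Rik. The N40K difference without the amyloid transgenes and that with them (dTg minus 5xFAD) share no library, and over the 87 high-score genes they correlated with Pearson's r = 0.65 and had the same sign in 60 (69.0%), against r = 0.51 and 71.4% over all 15705 genes, which share the libraries and the general shift.

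Genes with known detained or regulated introns, none of them high-score, were set beside this. Of 35 such genes at 6 months, 6 passed higher and 2 lower for N40K averaged over 5xFAD status, where 10.8% of all genes passed higher and 0.936% lower, with a median log2 difference of 0.11, against 0.09 over all genes. They were Cdk10, Fnbp4, Hnrnpu, Luc7l2, Luc7l3, Son, Srsf1 and Srsf11. In N40K minus WT and in dTg minus WT 1 passed higher and 1 lower each, where 0.178% and 1.57% of all genes passed in either direction. Of 9 nuclear and imprinted long noncoding RNAs, 1 passed higher and 1 lower (Meg3 and Mirg) for N40K averaged over 5xFAD status. In that comparison Snhg12 passed higher among 9 small RNA hosts.

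For 5xFAD, dTg and the interaction, no high-score gene passed. In 5xFAD minus WT 0 of 87 passed (0.0191% of all genes passed; at an unadjusted p under 0.05, 3 or 3.45%, against 4.39% of all genes), with Dock8, a guanine exchange factor of immune cells (-0.75 ± 0.24 SE, limma adjusted p = 0.949), Il4i1, an amino acid oxidase of myeloid cells (-0.60 ± 0.24, adjusted p = 1), and Cd14 (-0.56 ± 0.23, adjusted p = 1) of smallest p. Cd14 scored 3.04, 2.12 and 3.64 in 5xFAD libraries, against 3.85, 4.08 and 4.80 in WT libraries, without overlap. Another immune gene, Traf5, lay at 0.041, 0.051 and 0.052 in 5xFAD libraries, against 0.044, 0.042 and 0.042 in WT libraries. A shift in the cells present and a shift within cells cannot be told apart from ratios in bulk cortex, and levels of microglial markers were not analysed here.

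Averaged over N40K status, 0 of 87 passed for 5xFAD (0.0446% of all genes passed; unadjusted, 7 or 8.05%, against 6.17% of all genes). Dock8 scored 0.067, 0.066 and 0.056 in dTg and 0.097, 0.042 and 0.070 in 5xFAD libraries, against 0.124, 0.138 and 0.144 in N40K and 0.105, 0.114 and 0.117 in WT libraries. Every library with the amyloid transgenes lay below every library without (0.531-fold, log2 difference -0.91 ± 0.17 SE, limma unadjusted p = 0.000387, adjusted p = 0.144), and it passed without 5xFAD replicate 1 or without 5xFAD replicate 2. Cd14 (0.745-fold, adjusted p = 0.706) and Elmo3, of the engulfment and motility family (0.955-fold, adjusted p = 0.630), followed by p.

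In dTg minus WT 0 of 87 passed (1.57% of all genes passed; unadjusted, 18 or 20.7%, against 22.5% of all genes). The median log2 difference was -0.03 in the high-score genes and 0.11 over all genes, so the high-score genes were centred near WT while the table as a whole lay higher. Irak1bp1 (1.44-fold, limma adjusted p = 0.0519), Ptpn23 (1.15-fold, adjusted p = 0.0613) and Pdia2 (0.601-fold, adjusted p = 0.0737) had the smallest p. Irak1bp1 passed without N40K replicate 1 or without dTg replicate 3, Ptpn23 without N40K replicate 1, and Dock8, lower, without 5xFAD replicate 2. For the interaction of N40K and 5xFAD 0 of 87 passed (0.0191% of all genes passed; unadjusted, 4 or 4.60%, against 2.87% of all genes), and Ankrd53 (0.38 ± 0.14 SE, limma adjusted p = 1), the keratinocyte membrane gene Krtcap3 (0.54 ± 0.21, adjusted p = 1) and Adam21 (0.48 ± 0.20, adjusted p = 1) came first.

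At 12 months, in the libraries that chose the genes, 0 of 142 high-score genes passed in Tau P301S minus WT (0.00658% of all genes passed; unadjusted, 14 or 9.86%, against 8.28% of all genes). Of the 142, 62 were higher and 80 lower, with a median log2 difference of -0.02, as over all genes. Rab39, a small GTPase of vesicle traffic, scored 1.58 to 2.10 (median 1.92) in Tau P301S libraries, against 1.32, 1.398, 0.977 and 1.32 in WT libraries, with no overlap (1.51-fold, limma adjusted p = 0.291). Adam2 scored 0.648 to 1.23 (median 0.835) in Tau P301S libraries, against 2.07, 3.39, 2.01 and 8.49 in WT libraries, also with no overlap (0.254-fold, log2 difference -1.98 ± 0.39 SE, adjusted p = 0.291). Apob48r, a receptor for lipoproteins on macrophages, scored 0.389 to 1.18 (median 0.628) in Tau P301S libraries, against 1.66, 3.08, 1.39 and 1.28 in WT libraries (0.394-fold, adjusted p = 0.385). Adam2 and Apob48r met the mean of 1 through their WT scores (Adam2 averaged 0.855 in Tau P301S and 3.99 in WT libraries, Apob48r 0.736 and 1.86), so a difference of this direction was favoured by the selection. WT replicates 3 and 4 had the highest medians over all genes (0.017 each, against 0.013 to 0.016 in the other 8 libraries), and without both of them the count was still 0 of 142. Pdia2, which fell with N40K at 6 months, averaged 1.42 ± 0.881 in Tau P301S (SD, n = 6) and 2.43 ± 0.226 in WT libraries (SD, n = 4) at 12 months, with 3 Tau P301S libraries under 1 and an adjusted p of 0.615 in limma.

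**Figure D5:**
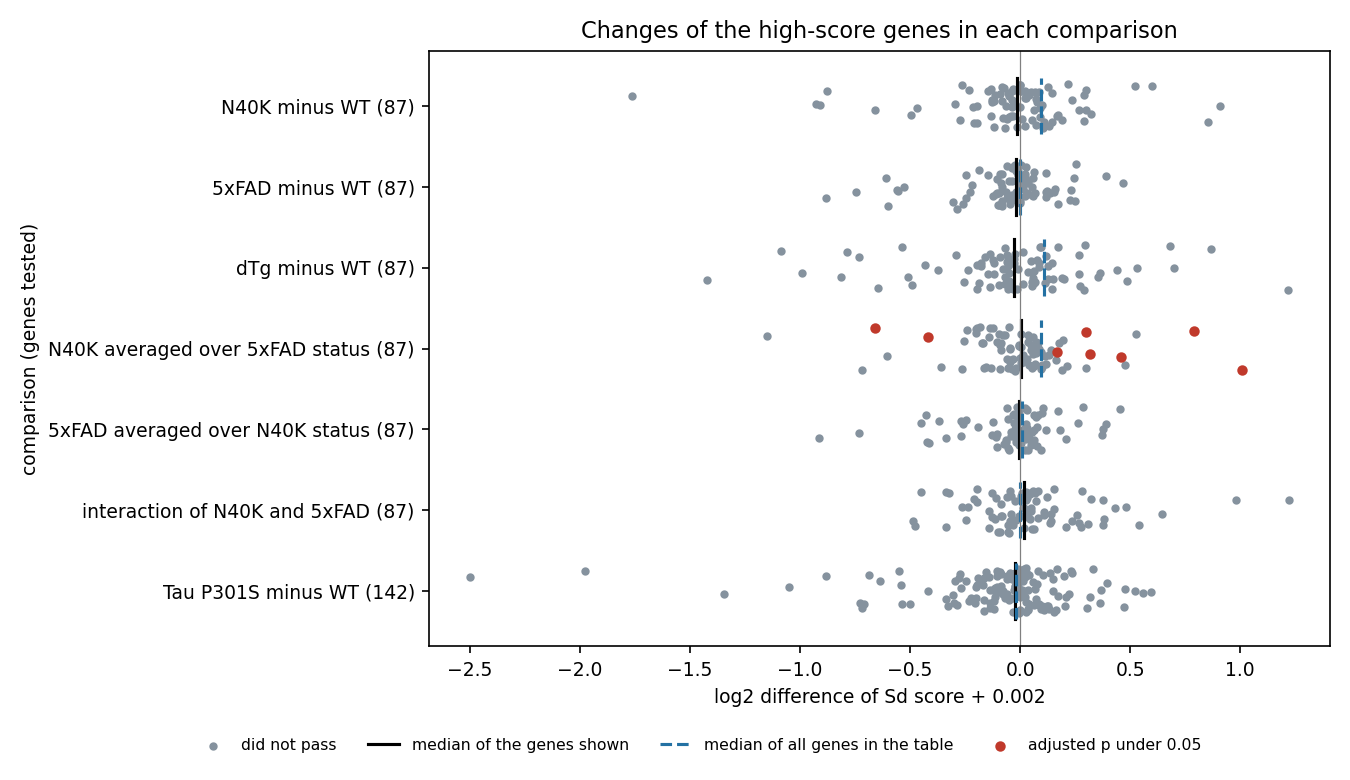
Log2 differences of Sd score + 0.002 of the high-score genes in each comparison, each point a gene (87 at 6 months, 142 for Tau P301S minus WT), with the median of these genes as a black line and that of all genes as a dashed blue line. In the 3 comparisons of N40K carriers with non-carriers the black line lies near 0 and the dashed line at 0.09 to 0.11, and red points mark the 8 genes that passed.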

How the data were processed

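Mouse cortex RNA was profiled in 22 libraries. The authors deposited an Sd score per gene and library, a linear ratio rounded to 3 decimals. Per the submitters' processing notes CASAVA, STAR, BWA, bedtools 2.16.1 and the mm9 build were used. The formula, counter, annotation and depth were not stated in any source at hand, and no counting interval can be given.

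Members and lists were chosen with earlier results of these data known. Members had a 12-month mean above 1, without symbols in Kcn, Pcdh, Zfp, Rpl, Rps, Nduf, Ddx or Dhx, and were matched to the 6-month table by symbol. Log2(score + 0.002) was fitted with limma 3.58.1 in R 4.3.3, 1 term per group, all libraries of a table together (8 residual degrees of freedom), Benjamini-Hochberg adjusted over all genes. The pseudocount was the 5th percentile of values above 0. The script was tested on simulated data.

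Named genes were the 12 highest at 12 months, the 4 nearest each side of the threshold, the 6 highest and 6 lowest at 6 months and, per comparison, up to 6 rises and 6 falls past the threshold or else the 3 of smallest p. Other genes named were chosen after their values were seen. Gene structure came from GENCODE M21 (GRCm38), so no coordinates are printed, and synonyms from RefSeq (GRCm38.p6). Alternatives were other pseudocounts (0.05 and 0.0005), a minimum mean score of 0.02, centring, a trend, a replicate block, omitted libraries and other member rules.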

Additional observations from a re-analysis of the deposited data

Results flagged for a closer look

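Each named gene was checked for a library far from the rest of its group at 12 months, in 86 groups (43 genes, Tau P301S with 6 and WT with 4 libraries). Chance flags about 1 in 20 groups where values are independent and normally distributed, and 14 flags (16.3%) arose. The scores are untransformed ratios, many genes were named for extreme scores, and all genes share the same libraries. The 1 in 20 is therefore no exact yardstick for the 14. No explanation was tested.

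Among Tau P301S libraries, Pou3f1 was low in replicate 3 (7.08, the others 20.8 to 23.7), Cldn10 high in replicate 3 (1.943, the others 1.78 to 1.83), Ankrd53 high in replicate 1 (1.600, the others 0.983 to 1.18) and Adam2 high in replicate 5 (1.23, the others 0.648 to 0.853).

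Among WT libraries, replicate 1 was low in Pou3f1 (9.44, the others 15.4 to 16.4) and high in Npb (3.11, the others 2.00 to 2.15) and Mbd5 (1.461, the others 1.31 to 1.34). Replicate 2 was high in Gm628 (16.8, the others 12.2 to 12.4), Il31ra (17.35, the others 3.33 to 5.37) and Sh3tc2 (3.32, the others 1.39 to 1.68) and low in Adrbk1 (1.13, the others 1.43 to 1.44) and Calml4 (0.411, the others 0.911 to 0.944). Replicate 3 was low in X02969 (8.224, the others 10.28). Replicate 4 was high in Ccl21a (25.2, the others 9.09 to 10.6).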

How the results depend on the processing

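The score has no known depth, genes under 0.02 move by steps of the last decimal, and 3 libraries a group at 6 months leave most single calls open to 1 library. For N40K averaged over 5xFAD status (8 genes), 4 passed with a replicate block and 4 among members by a mean above 2 (of 30 tested). Without both N40K replicate 1 and dTg replicate 2, 3 passed, and with 1 library left out 2 to 10. Over all genes 5.66% passed with the block and 4.77% without both, against 11.7% in the main fit. The 2 came without 5xFAD replicate 3 (5.30% of all genes) and the 10 without dTg replicate 3 (9.63%). The block kept Gm628, Il31ra, Irak1bp1 and Pdia2. Same-numbered libraries of different groups correlated from -0.20 to 0.07 at 6 months and from -0.27 to 0.19 at 12 months. These values gave no sign of pairing by replicate number, but groups this small cannot exclude a pairing. For N40K minus WT (0 genes) the count was 1, Irak1bp1, without both libraries and 0 to 5 with 1 left out. Over all genes 1.62% passed without both and 3.34% without dTg replicate 2, which gave the 5, against 0.178% in the main fit. With 1 library left out, the count was 0 to 2 for dTg minus WT and 0 to 1 for 5xFAD averaged over N40K status. The 2 came without N40K replicate 1, where 4.52% of all genes passed, against 1.57% in the main fit. The 1 for 5xFAD came without 5xFAD replicate 1 or 5xFAD replicate 2, where 0.127% and 0.0828% of all genes passed, against 0.0446%. The other comparisons stayed at 0 genes under all alternatives run. None of the 8 genes turned its direction under any of these settings. A mean above 2 left 61 members and 9 with a 6-month mean above 1, and a median above 1 left 133 members. Under the median rule 6 of 78 genes tested passed for N40K averaged over 5xFAD status, where 11.7% of all genes passed. Ptpn23 and Parp8 were no longer members under that rule.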
